A study of Rattus norvegicus with 6 samples.

Results

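Genes that write, erase and read DNA methylation and histone marks were examined in the mesenterial fat of newborn rats born to dams on a vitamin D deficient feed (0 IU/kg, deficient group, 3 arrays) or an adequate feed (1000 IU/kg, adequate group, 3 arrays). The members were 50 genes chosen by their function. A gene was included where the platform annotation gives a probe set that single symbol, which held for 45 of the 50 genes with 73 probe sets, out of 14217 named genes on the array. The members without such a probe set, Hdac9, Sirt1, Kdm4a, Setd7 and Suv39h1, were not analysed here. All animals were wildtype Sprague-Dawley rats, an outbred laboratory strain, and total RNA of each sample was hybridised to an Affymetrix Rat Genome 230 2.0 array. Sex and litter of the newborns are not in the labels, nor is it stated that each array is an animal of its own, so the spread behind the p-values may be partly technical.

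DNA methyltransferases add a methyl group to cytosines that precede a guanine (CpG sites), Uhrf1 brings the maintenance enzyme to newly copied DNA, and TET dioxygenases oxidise the mark, which leads to its removal. Histone acetyltransferases open chromatin and deacetylases close it again, the NAD-dependent sirtuins among them, while SET domain enzymes and lysine demethylases set and clear histone methylation. Polycomb repressive complex 2 methylates histone H3 to silence genes, and SWI/SNF complexes use ATP to move nucleosomes. In fat these enzymes are known for their part in the differentiation of preadipocytes, and they are studied as candidates for lasting effects of the maternal diet on offspring.

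Most promoters of these genes hold many of the CpG sites that the methyltransferases act on. Sequences from 250 bases before to 50 bases after the gene start were taken from RefSeq (GRCr8 assembly) and were found for 39 of the 44 members bright enough to test. These 39 promoters had a median of 24 CpG sites, between 3 and 48, and 89.7% of them had at least 15. Among the 8833 promoters of all tested genes the median was 21 sites, and 72.7% had at least 15. The promoters of 4 members that recur below are shown, with CpG sites in capitals: Hdac6 and Ehmt2, which read lower on every deficient array than on any adequate array, Crebbp, which read higher on every deficient array, and its paralog Ep300, which had the highest log2 change of all members. They lie at chrX:17222925-17223224 (plus strand, Hdac6), chr20:3940661-3940960 (minus strand, Ehmt2), chr10:11842090-11842389 (plus strand, Crebbp) and chr7:114987607-114987906 (plus strand, Ep300).
Hdac6: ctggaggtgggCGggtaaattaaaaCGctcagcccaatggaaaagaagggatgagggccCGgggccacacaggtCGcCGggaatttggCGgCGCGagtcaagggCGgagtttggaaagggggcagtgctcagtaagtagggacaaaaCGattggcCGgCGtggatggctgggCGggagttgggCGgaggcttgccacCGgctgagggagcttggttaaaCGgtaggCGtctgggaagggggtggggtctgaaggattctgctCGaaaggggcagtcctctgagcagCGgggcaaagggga
Ehmt2: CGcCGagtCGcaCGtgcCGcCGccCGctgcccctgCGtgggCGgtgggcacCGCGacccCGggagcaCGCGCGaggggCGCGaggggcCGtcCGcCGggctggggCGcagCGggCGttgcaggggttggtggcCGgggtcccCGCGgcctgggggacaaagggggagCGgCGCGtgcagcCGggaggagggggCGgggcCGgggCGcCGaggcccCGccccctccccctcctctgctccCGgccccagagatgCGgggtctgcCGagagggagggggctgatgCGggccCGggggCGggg
Crebbp: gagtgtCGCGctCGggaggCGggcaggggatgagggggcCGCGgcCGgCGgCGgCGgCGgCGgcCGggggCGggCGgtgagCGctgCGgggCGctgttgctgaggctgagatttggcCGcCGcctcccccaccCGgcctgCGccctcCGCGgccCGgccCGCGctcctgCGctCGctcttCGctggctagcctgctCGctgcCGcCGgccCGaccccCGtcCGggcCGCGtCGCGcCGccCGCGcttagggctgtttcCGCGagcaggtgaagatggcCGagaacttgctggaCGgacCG
Ep300: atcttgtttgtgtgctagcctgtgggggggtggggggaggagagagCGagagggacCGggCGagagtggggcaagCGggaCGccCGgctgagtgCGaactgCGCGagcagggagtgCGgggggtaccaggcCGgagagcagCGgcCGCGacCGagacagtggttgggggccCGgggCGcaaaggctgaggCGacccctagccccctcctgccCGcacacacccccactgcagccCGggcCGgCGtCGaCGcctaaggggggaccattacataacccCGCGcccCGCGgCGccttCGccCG
The Hdac6 promoter holds 19 CpG sites, the Ehmt2 promoter 41, the Crebbp promoter 48 and the Ep300 promoter 31. The GC box GGGCGG, searched on both strands as were the other motifs, was found in 29 of the 39 promoters (74.4%), against 63.8% of the promoters of all tested genes and 34.9% of all 27456 promoters of the table. CCAAT was found in 20 (51.3%, against 37.8% and 37.7%) and the ETS core CGGAAG in 9 (23.1%, against 31.8% and 17.4%). A pair of vitamin D receptor half-sites (AGGTCA or AGTTCA, or either of these with G in place of the first A, in the same orientation and 3 bases apart) was found in 0 of the 39, against 2 of the 8833 promoters of all tested genes and 28 of all promoters. These counts describe the letters in the windows.

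The values are linear signals, in intensity units, with the same trimmed mean on every array as deposited. Probe sets were tested where their mean log2 signal reached the 40th percentile of all probe sets, 6.46, which is a signal of 88.2. Of the members' probe sets 60 were tested and 13 were too dim. The tested ones covered 44 genes, and the brightest tested probe set stands for each gene below. Deficient arrays 1 and 2 differed in quality measures from the other 4 arrays. Their bacterial hybridisation controls read 7.27 and 10.8 times the adequate mean, against 0.985 times on deficient array 3, and their beta-actin 3' over 5' ratios were 7.56 and 6.80, against 2.35 on deficient array 3 and 2.39 to 4.81 on the adequate arrays. The first principal component of all tested probe sets, 49.5% of the variance, set them at 43.1 and 46.4, against -20.3 for deficient array 3 and -26.2 to -18.5 for the adequate arrays. Values for deficient array 3 alone against the adequate arrays are therefore given beside the results that these arrays touch. Of the 12 adipocyte markers 7 genes were tested. The summed signal of the whole list was 4207 to 6633 on the deficient and 5333 to 5839.9 on the adequate arrays. Among the others, signals were 11.1 to 47.8 for Adipoq, 4.3 to 40.8 for Plin1 on its brighter probe set and 2.1 to 8.2 for Cidec. Pparg and Plin4 were also too dim to test. The 7 tested genes were Fabp4, Lpl, Lipe, Cd36, Cebpa, Dgat2 and Pnpla2. Their median log2 deviation from the adequate mean was -0.54, -0.37 and 0.31 on deficient arrays 1 to 3. In tissue RNA, fewer cells of a type and less RNA per cell cannot be told apart.

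With limma and Benjamini-Hochberg adjustment, 0 of the 44 members passed the adjusted threshold of 0.05. Of the 18625 probe sets tested on the whole array 0 passed by limma as well (0.0%), and the lowest adjusted p of a member was 0.344. At an unadjusted p under 0.05, 4 members read higher in the deficient group (Ep300, Arid1a, Suz12 and Crebbp) and 4 lower (Hdac6, Hdac3, Smarca4 and Ehmt2). Over all 10591 tested genes the same rule held for 4.75% higher and 10.1% lower, and over the members for 9.09% each way. By probe set, 6 of the members' 60 read higher and 4 lower at that p, against 6.03% and 8.18% of all tested probe sets and 14.2% in either direction. After median centring of the arrays the split among the genes was 6 higher and 2 lower, and after quantile normalization 5 higher and 2 lower. The shares of all tested genes were not counted after these steps, so these splits have no background to be read against. The median log2 change (deficient minus adequate) of the members was -0.10, against -0.09 over all tested genes, and 29 of 44 members had a negative change (65.9%, against 60.8%). Groups did not overlap for 2 higher members (Crebbp and Eed, against a background of 4.97%) and for 5 lower members (Hdac1, Hdac6, Ehmt2, Smarca4 and Smarcb1, against 13.3%).

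**Figure D1:**
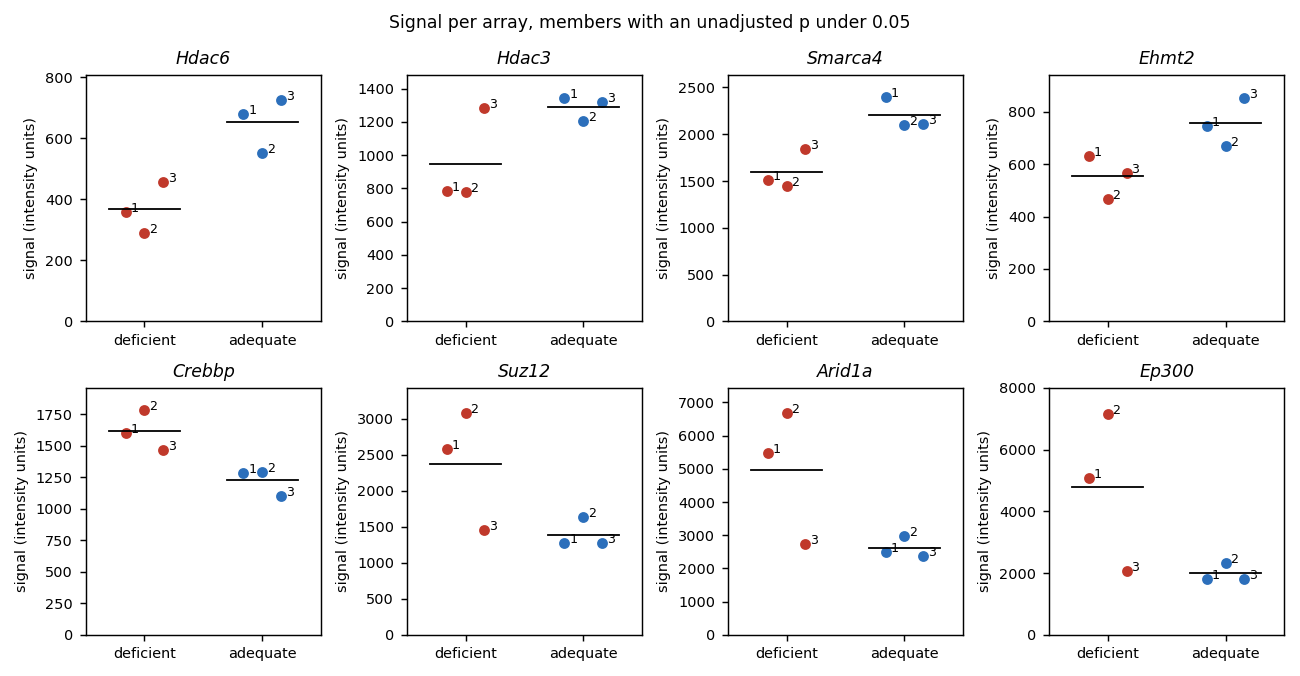
Signal in intensity units for each array (points, numbered by replicate) of the 8 members with an unadjusted p under 0.05, with the group mean as a line, deficient left and adequate right. Deficient arrays 1 and 2 lie far above all other arrays for Suz12, Arid1a and Ep300, while for Hdac6, Smarca4, Ehmt2 and Crebbp all 3 deficient arrays lie on 1 side of the adequate arrays.

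Leaving out single arrays moved these counts. The 4 higher members became 2 without deficient array 1 and likewise without adequate array 1 or 3, and 0 without deficient array 2. The 4 lower members became 1 without adequate array 1, 2 without adequate array 3 or deficient array 2, and 9 without deficient array 3. In that last setting 6 members read higher, and over all tested genes 13.8% read higher and 24.6% lower. For the other arrays left out, the shares of all tested genes were not counted. Without deficient array 3, the 8 members named above other than Ehmt2 passed the adjusted threshold, 7 of 44 or 15.9%, where 22.0% of all tested genes did. With deficient array 3 alone against the adequate arrays, 0 members read higher at an unadjusted p under 0.05 (background 1.94%) and 2 lower (background 4.94%), the mitochondrial sirtuin Sirt5 and the acetyltransferase Kat2a, and 0 passed the adjusted threshold. The sign of the log2 change turned on that array for 16 of the 44 members (36.4%, against 36.5% of all tested genes), and 25 members then had a negative change (56.8%, against 54.4%).

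Among the DNA methyltransferases and Uhrf1, 0 of the 3 tested genes had an unadjusted p under 0.05 by limma. Dnmt1, the maintenance enzyme, had signals of 1935, 1500.1 and 1254 on deficient arrays 1 to 3, against 1718, 1429 and 1499 on the adequate arrays. Its log2 change was -0.01 ± 0.18 with all arrays (SE), and the groups overlapped. The change of Dnmt1 was -0.30 with deficient array 3 alone, which read below all adequate arrays, and 0.14 without that array. Dnmt3a, which sets new methylation, had 1241, 1201 and 831 on the deficient arrays, against 1245, 463 and 1337 on the adequate arrays. Adequate array 2 was the low one, and it was also the lowest on the other tested probe set of Dnmt3a, at 94.4 against 121.5 to 222.7 on the other 5 arrays. Dnmt3b, the other enzyme of that kind, was too dim to test, with signals of 2.1 to 35.6 on the deficient and 9.5 to 35.4 on the adequate arrays. Uhrf1 had 1443, 948 and 1497 on the deficient arrays, against 1333, 1643 and 1734 on the adequate arrays, a log2 change of -0.30 ± 0.20 (SE, adjusted p 0.476 by limma). Its groups overlapped, and deficient array 2 was the lowest. The change was -0.06 ± 0.19 with deficient array 3 alone (SE), -0.42 without that array and -0.09 without deficient array 2.

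Uhrf1 and Dnmt1 are expressed mainly in dividing cells, so the cell cycle markers are given beside them. Of 13 tested markers 9 had a negative log2 change, 4 of them at an unadjusted p under 0.05 by limma (30.8%, against 10.1% of all tested genes), with a median of -0.26 (against -0.09). Their summed signal was 27111 to 33175 on the deficient and 29392 to 31294 on the adequate arrays. Their median log2 deviation from the adequate mean was -0.13, -0.37 and -0.33 on deficient arrays 1 to 3. The part of these markers in the values of Uhrf1 and Dnmt1 was not tested.

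Of the 2 TET enzymes and 3 methyl-CpG readers tested, 0 had an unadjusted p under 0.05 by limma. Tet2 had signals of 1159, 1321 and 1428 on the deficient arrays, against 1168, 1336 and 1095 on the adequate arrays, a log2 change of 0.12 ± 0.16 (SE). Tet3 was at -0.09 ± 0.19 on its brightest probe set, and its other 2 tested probe sets were at 0.32 ± 0.25 and 0.34 ± 0.34 (SE). Among the readers, Mbd2 and Mbd3, alternative subunits of the NuRD deacetylase complex, were close between groups and between arrays. Mbd2 averaged 11.81 ± 0.06 in the deficient and 11.77 ± 0.09 in the adequate group in log2 signal (SD, n = 3 each). Mbd3 averaged 10.55 ± 0.05 in the deficient and 10.58 ± 0.07 in the adequate group (SD, n = 3 each). Mbd1, a reader that acts with histone methyltransferases, had signals of 948, 1057 and 1696 on the deficient arrays, against 1202, 1491 and 1295 on the adequate arrays. The deficient arrays thus lay on both sides of the adequate ones, and the log2 change was -0.15 ± 0.22 with all arrays and 0.36 ± 0.18 with deficient array 3 alone (SE).

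Hdac6 had the lowest unadjusted p among the members by its brightest probe set. It encodes a mainly cytoplasmic deacetylase whose known substrates include tubulin. Its signals were 358, 288 and 456 on the deficient arrays, against 679.9, 552 and 727 on the adequate arrays. Every deficient array was below every adequate array. The log2 change was -0.85 ± 0.21 (SE), a fold of 0.557, with an unadjusted p of 0.00251 and an adjusted p of 0.344 by limma. With deficient array 3 alone the log2 change was -0.51 ± 0.22 (SE, unadjusted p 0.0529 by limma), and over the fits that left out 1 array it lay between -1.01 and -0.68.

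Among the class I deacetylases, Hdac3 showed the split between the deficient arrays. Hdac3 is the catalytic subunit of the nuclear receptor corepressor complexes. It had signals of 782, 777 and 1282 on deficient arrays 1 to 3, against 1346, 1204 and 1317 on the adequate arrays. Deficient arrays 1 and 2 were low and deficient array 3 lay within the adequate range, with a log2 change of -0.48 ± 0.21 with all arrays and -0.01 ± 0.16 with deficient array 3 alone (SE). Hdac1 had 1149, 931 and 1212 on the deficient arrays, against 1359, 1277 and 1270.3 on the adequate arrays, so all deficient arrays were lower on this brightest probe set. The log2 change was -0.26 ± 0.16 with all arrays (adjusted p 0.439 by limma) and -0.10 ± 0.16 with deficient array 3 alone (SE). On the other tested probe set of Hdac1 the groups overlapped. It was at -0.37 ± 0.33 with all arrays and 0.38 ± 0.31 with deficient array 3 alone (SE). The paralog Hdac2, which shares complexes with Hdac1, had 5649.8, 5776 and 4034 on the deficient arrays, against 4383, 4847 and 4388 on the adequate arrays. For Hdac2 deficient arrays 1 and 2 were above and deficient array 3 below all adequate arrays, and the log2 change was 0.17 ± 0.18 (SE). Hdac8 was at -0.01 ± 0.21 (SE).

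The remaining class II and class IV genes had log2 changes between -0.25 and 0.22, and their groups overlapped. Hdac4, a class II enzyme that shuttles between cytoplasm and nucleus, had its highest signal on deficient array 3, at 279, against 215 and 150.1 on the other deficient arrays and 137 to 205 on the adequate arrays. Hdac5 had 872, 1085 and 648 on the deficient arrays, against 755, 794 and 808 on the adequate arrays, again with deficient arrays 1 and 2 above and deficient array 3 below. Hdac7 was at -0.25 ± 0.21 and Hdac11, the class IV enzyme, at 0.16 ± 0.25 (SE).

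All 5 tested sirtuins had negative log2 changes, between -0.36 and -0.10, with a median of -0.23, where 60.8% of all tested genes had a negative change and their median was -0.09. On deficient array 3 alone 4 of the 5 were negative, and with all arrays 0 of the 5 had an unadjusted p under 0.05 by limma. Sirt7, the nucleolar sirtuin, had signals of 326, 349 and 516 on the deficient arrays, against 532, 544 and 426 on the adequate arrays. Deficient arrays 1 and 2 were low and deficient array 3 was within the adequate range. Its log2 change was -0.36 ± 0.22 with all arrays and 0.05 ± 0.23 with deficient array 3 alone (SE). Sirt5, a mitochondrial enzyme that removes succinyl and malonyl groups, had 1925, 1246 and 1077 on the deficient arrays, against 1807, 1532 and 1495 on the adequate arrays. Here deficient array 1 was the highest of all and deficient array 3 the lowest, and the log2 change was -0.23 ± 0.22 with all arrays and -0.58 ± 0.17 with deficient array 3 alone (SE, unadjusted p 0.0111 by limma). Sirt6, a nuclear deacetylase, was at -0.27 ± 0.20, the cytoplasmic Sirt2 at -0.10 ± 0.17 and the mitochondrial deacetylase Sirt3 at -0.12 ± 0.22 (SE).

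Of the 4 core subunit genes of Polycomb repressive complex 2, 2 had positive and 2 negative log2 changes. Suz12, a scaffold subunit, had signals of 2584, 3083 and 1459 on the deficient arrays, against 1269, 1629 and 1276 on the adequate arrays. Deficient arrays 1 and 2 were high and deficient array 3 lay within the adequate range. The log2 change was 0.71 ± 0.26 with all arrays (SE, adjusted p 0.344 by limma) and 0.08 ± 0.19 with deficient array 3 alone. Eed, which binds the methylated histone tail, had 1218, 1184 and 1211 on the deficient arrays, against 995.5, 1073 and 884 on the adequate arrays. All 3 deficient arrays were higher and close to each other, and the log2 change was 0.30 ± 0.15 with all arrays (adjusted p 0.372 by limma) and 0.30 ± 0.18 with deficient array 3 alone (SE). The catalytic subunit Ezh2 was at -0.05 ± 0.21 and its paralog Ezh1 at -0.29 ± 0.19 with all arrays (SE), with overlap. With deficient array 3 alone Ezh2 was at -0.39, and without that array at 0.13.

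The lysine demethylases had log2 changes between -0.19 and 0.38, and 0 of the 5 tested had an unadjusted p under 0.05 by limma. Kdm5a, which removes methylation of the activating kind from histone H3, had signals of 1657, 2325 and 2067 on the deficient arrays, against 1838, 1567 and 1401 on the adequate arrays, a log2 change of 0.33 ± 0.18 (SE, adjusted p 0.392). Deficient array 1 lay within the adequate range, and all 4 tested probe sets of Kdm5a had positive changes with all arrays, between 0.23 and 0.43. With deficient array 3 alone the brightest was at 0.38 and the others at 0.91, 1.39 and 0.58. Without that array the brightest was at 0.30 and the others, in the same order, at 0.07, -0.05 and 0.05. Kdm2a, the demethylase that binds unmethylated CpG islands, also had positive changes with all arrays on all 3 of its tested probe sets, between 0.09 and 0.38. With deficient array 3 alone its brightest probe set was at -0.01 ± 0.24, and the other 2 were at 0.40 ± 0.23 and 0.48 ± 0.39 (SE). Kdm1a, the flavin-dependent demethylase, was at -0.19 ± 0.15, Kdm3a at -0.16 ± 0.17 and Kdm6b, which opposes Polycomb repressive complex 2, at 0.08 ± 0.18 (SE).

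Ehmt2 encodes the enzyme known as G9a, which sets a repressive methyl mark on histone H3. Its signals were 632, 466 and 565 on the deficient arrays, against 746, 670.3 and 852 on the adequate arrays. All deficient arrays were lower than all adequate arrays. The log2 change was -0.45 ± 0.18 (SE), a fold of 0.731 (adjusted p 0.344 by limma), and it was -0.41 ± 0.21 with deficient array 3 alone and -0.47 on deficient arrays 1 and 2 without array 3. Setd2 had 879, 662 and 1166 on the deficient arrays, against 1060.4, 1098 and 890.0 on the adequate arrays, and its log2 change was -0.20 ± 0.21 with all arrays and 0.20 ± 0.19 with deficient array 3 alone (SE). Setdb1, which acts with Trim28, had 1717, 1448 and 2172 on the deficient arrays, against 2049, 2007 and 1732 on the adequate arrays, and its change was -0.13 ± 0.18 with all arrays and 0.17 ± 0.16 with deficient array 3 alone (SE). For both genes deficient arrays 1 and 2 were below and deficient array 3 above all adequate arrays.

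Setd5 gave different answers by probe set. Its brightest probe set had signals of 1740.2, 1539.8 and 1824 on the deficient arrays, against 1864, 1708 and 1688 on the adequate arrays, a log2 change of -0.05 ± 0.15 (SE). Its second-brightest probe set had 767, 710.0 and 543 on the deficient arrays, against 410.0, 265 and 342 on the adequate arrays, a log2 change of 1.00 ± 0.22 (SE, adjusted p 0.344 by limma). The third was at 0.02 ± 0.23 (SE). Only the second-brightest of the 3 probe sets read higher on every deficient array than on every adequate array. Its log2 change was 0.70 with deficient array 3 alone and 1.15 without that array.

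**Figure D2:**
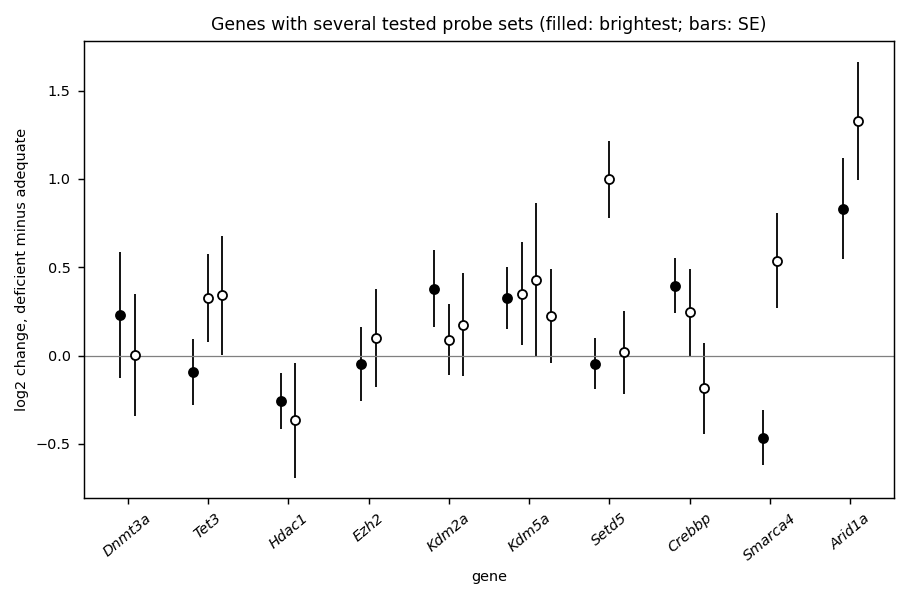
Log2 change (deficient minus adequate, with SE) of every tested probe set of the 10 members that have several, with the brightest filled. The probe sets of Tet3, Ezh2, Setd5, Crebbp and Smarca4 lie on both sides of 0, and those of Kdm2a, Kdm5a and Arid1a all lie above it.

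Such disagreement was found in 5 of the 10 members with several tested probe sets, Tet3, Ezh2, Setd5, Crebbp and Smarca4. The remaining 34 members rest on a single tested probe set.

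Of the acetyltransferases, the paralogs Ep300 and Crebbp, coactivators of many transcription factors, had the highest changes. Ep300 had signals of 5093, 7143 and 2082 on the deficient arrays, against 1815, 2335 and 1808 on the adequate arrays. Deficient arrays 1 and 2 were over 2 times as bright as any adequate array, and deficient array 3 lay within the adequate range. The log2 change was 1.10 ± 0.36 with all arrays (SE, adjusted p 0.344 by limma) and 0.08 ± 0.19 with deficient array 3 alone. Crebbp had 1599.9, 1779 and 1468 on the deficient arrays, against 1286, 1293 and 1103 on the adequate arrays. Here all 3 deficient arrays were above all adequate arrays, with a log2 change of 0.40 ± 0.15 (SE), a fold of 1.32, and 0.26 ± 0.17 with deficient array 3 alone. The other tested probe sets of Crebbp were at 0.24 ± 0.25 and -0.19 ± 0.26 (SE).

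The other acetyltransferases had overlapping groups. Kat2a had 468, 359.5 and 251 on the deficient arrays, against 396, 351 and 446 on the adequate arrays. Its lowest value was that of deficient array 3, with a log2 change of -0.66 ± 0.24 for that array alone (unadjusted p 0.0261 by limma) and -0.19 ± 0.24 with all arrays (SE). Kat5 had 628, 692 and 1158 on the deficient arrays, against 884, 965 and 855 on the adequate arrays, so deficient arrays 1 and 2 were below and deficient array 3 above them. Kat2b was at -0.09 ± 0.15 (SE).

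Of the SWI/SNF genes, the ATPase Smarca4 on its brightest probe set and the core subunit Smarcb1 read lower and the DNA-binding subunit Arid1a higher. Smarca4 had signals of 1507, 1448 and 1844 on the deficient arrays, against 2395, 2097 and 2110.4 on the adequate arrays on its brightest probe set. All deficient arrays were lower, by a log2 change of -0.47 ± 0.16 (SE, adjusted p 0.344 by limma), and by -0.25 ± 0.15 with deficient array 3 alone. Its second-brightest probe set had 1659, 1214 and 983 on the deficient arrays, against 995, 578 and 1127 on the adequate arrays, a log2 change of 0.54 ± 0.27 (SE). Adequate array 2 was the lowest there, and the change lay between 0.25 and 0.73 over the fits that left out 1 array. With deficient array 3 alone it was 0.18. The direction for Smarca4 thus depends on the probe set, and the mean of both was at 0.04. Smarcb1 had 889.6, 851 and 904 on the deficient arrays, against 1148, 1151 and 939 on the adequate arrays, without overlap, a log2 change of -0.29 ± 0.16 with all arrays and -0.25 ± 0.19 with deficient array 3 alone (SE).

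Arid1a had 5475, 6674 and 2731 on the deficient arrays, against 2485, 2988 and 2380.4 on the adequate arrays. Deficient array 3 was within the adequate range and the other deficient arrays far above it, for a log2 change of 0.83 ± 0.29 with all arrays and 0.07 ± 0.17 with deficient array 3 alone (SE). Its dimmer tested probe set had 262, 299 and 125 on the deficient arrays, against 75.5, 82.6 and 98.5 on the adequate arrays, which do not overlap, and a log2 change of 1.33 ± 0.34 (SE, adjusted p 0.344 by limma). On that probe set the log2 change was 0.55 with deficient array 3 alone. Brd2, a reader of acetylated histones, was at -0.12 ± 0.17 (SE).

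**Figure D3:**
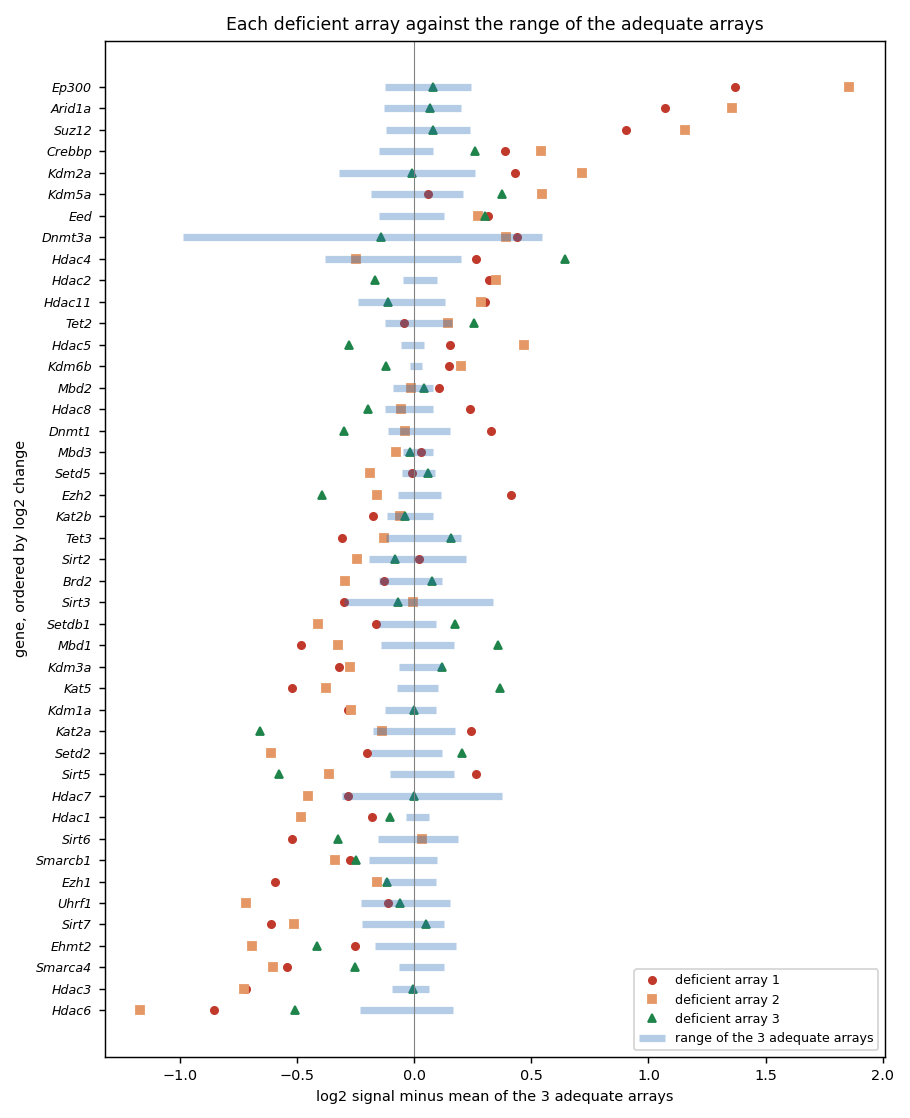
Log2 signal of each deficient array (symbols) minus the mean of the adequate arrays, with the range of the 3 adequate arrays as a bar, for the 44 tested members ordered by log2 change. Deficient array 3 lies inside the bar for 21 members, Ep300, Arid1a, Suz12 and Hdac3 among them.

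Across the 44 members, deficient arrays 1 and 2 both lay outside the adequate range on the same side for 25 genes (56.8%, against 54.4% of all tested genes). Deficient array 3 was within the adequate range for 11 of these 25, and for 21 of all 44 members (47.7%, against 44.5% of all tested genes). Markers of other cell types are given for the same arrays. The 8 tested lymphocyte markers all had negative changes, with a median log2 deviation from the adequate mean of -0.92 on both of these arrays and -0.12 on deficient array 3, and summed signals over the whole list of 3449 to 5450.0 on the deficient and 4449.7 to 7536 on the adequate arrays. Macrophage markers, all 10 tested, stood at -0.50 on both and -0.02 on deficient array 3, with sums of 5686 to 8533 on the deficient and 7921 to 9131 on the adequate arrays. Smooth muscle markers, 8 of 8 tested, stood at 0.46 and 0.54 and at 0.15 on deficient array 3, with sums of 76875 to 117849 on the deficient and 60734 to 73048 on the adequate arrays. The part of these cell types and of RNA quality in the values of Ep300, Arid1a, Suz12 and Hdac3 was not tested. In a fit with the bacterial controls as a covariate, log2 changes were 0.08 for Ep300, 0.08 for Arid1a, 0.07 for Suz12 and -0.03 for Hdac3, and -0.49 for Hdac6, -0.38 for Ehmt2 and 0.31 for Eed. The mean log2 signal of these controls was 11.4 and 11.9 on deficient arrays 1 and 2 and 8.08 to 8.75 on the other arrays. This fit is therefore close to deficient array 3 alone and cannot separate RNA quality from other differences of deficient arrays 1 and 2.

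A further 124 chromatin genes of the same families were listed by function. Of these 113 had a probe set and 108 were tested, and 0 passed the adjusted threshold by limma. At an unadjusted p under 0.05, 10 read higher (9.26%) and 12 lower (11.1%), against 4.75% and 10.1% of all tested genes, and the median log2 change was -0.11. The shares of all tested genes were not counted after median centring or quantile normalization. The split was 15 higher and 8 lower after the former and 11 higher and 9 lower after the latter. With deficient array 3 alone it was 1 higher and 5 lower (0.926% and 4.63%, against 1.94% and 4.94% of all tested genes). Without deficient array 3 it was 20 higher and 35 lower (18.5% and 32.4%, against 13.8% and 24.6%).

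Among the genes with negative changes, those with the lowest p were Prmt2, an arginine methyltransferase, Trim28, the corepressor that recruits Setdb1, Kmt2d, a methyltransferase of enhancers, and Chd4, the ATPase of NuRD. Prmt2 had signals of 352, 348 and 412 on the deficient arrays, against 664, 481 and 589.6 on the adequate arrays, a log2 change of -0.63 ± 0.19 with all arrays and -0.48 ± 0.24 with deficient array 3 alone (SE). Trim28 had 1761, 1689 and 2983 on the deficient arrays, against 3445, 3147 and 3511 on the adequate arrays, a log2 change of -0.70 ± 0.22 with all arrays and -0.17 ± 0.14 with deficient array 3 alone (SE). Kmt2d had 569, 820.5 and 926 on the deficient arrays, against 1144, 1093 and 1163 on the adequate arrays, a log2 change of -0.58 ± 0.20 with all arrays and -0.29 ± 0.16 with deficient array 3 alone (SE). Chd4 had 1074, 979.8 and 1298 on the deficient arrays, against 1543, 1593 and 1419 on the adequate arrays, a log2 change of -0.45 ± 0.16 with all arrays and -0.22 ± 0.16 with deficient array 3 alone (SE). The groups did not overlap for any of these 4 genes, and Chd4 had another tested probe set with a log2 change of 0.23 ± 0.28 (SE).

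The 4 genes with higher values and the lowest p were Setd1b, Prdm2, Chd7 and Kdm4c. Prdm2, a SET domain zinc finger protein, had signals of 587.5, 502.5 and 548 on the deficient arrays, against 429, 229 and 393 on the adequate arrays. Its groups did not overlap on this brightest probe set, and its log2 change was 0.69 ± 0.25 with all arrays and 0.70 ± 0.36 with deficient array 3 alone (SE). Adequate array 2 was the lowest, and the change lay between 0.41 and 0.86 over the fits that left out 1 array. A dimmer probe set, also without overlap, was at 0.47 ± 0.24 with all arrays and 0.18 ± 0.29 with deficient array 3 alone (SE). The remaining tested probe sets of Prdm2 were at 0.03 ± 0.28, 0.08 ± 0.30 and 0.06 ± 0.27 with all arrays (SE). The methyltransferase Setd1b had 1679, 2444 and 1151 on the deficient arrays, against 931, 1182 and 914 on the adequate arrays, with a log2 change of 0.74 ± 0.25 with all arrays and 0.20 ± 0.20 with deficient array 3 alone (SE). The demethylase Kdm4c had 237, 255 and 93.5 on the deficient arrays, against 85.8, 108 and 76.7 on the adequate arrays, with changes of 1.00 ± 0.38 and 0.07 ± 0.34 (SE) in the same settings. For both genes deficient arrays 1 and 2 were high and deficient array 3 lay within the adequate range. The remodeller Chd7 had 1036, 953 and 675 on the deficient arrays, against 602, 605 and 612 on the adequate arrays, without overlap, a log2 change of 0.53 ± 0.19 with all arrays and 0.15 ± 0.18 with deficient array 3 alone (SE). Another of its tested probe sets was at -0.61 ± 0.21 with all arrays, also without overlap, and at -0.40 ± 0.24 with deficient array 3 alone (SE).

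Sorted into the complexes they are known to form, a grouping made after the values were seen, subunits of the same complex pointed both ways. Each gene was counted by its brightest tested probe set, and for some genes the direction depends on that choice. Over all tested genes 60.8% had a negative change with all arrays and 54.4% with deficient array 3 alone, and 13.3% were lower without overlap between the groups. Of 15 SWI/SNF subunit genes, 9 had negative changes with all arrays (60%) and 11 with deficient array 3 alone (73.3%). Smarca4, Smarcb1, Smarcc1, Smarcd2 and Smarcd3 were lower without overlap. The log2 changes of these 5 lay between -0.47 and -0.29 with all arrays and between -0.54 and -0.09 with deficient array 3 alone. On their brightest tested probe sets the higher subunits rested on deficient arrays 1 and 2. Arid1b, a paralog of Arid1a, had 11035, 13823 and 2455 on the deficient arrays, against 2876, 3723 and 2934 on the adequate arrays, a log2 change of 1.19 ± 0.51 with all arrays and -0.36 ± 0.18 with deficient array 3 alone (SE). Smarce1 was at 0.55 ± 0.22 with all arrays and 0.09 ± 0.18 with deficient array 3 alone (SE). Other tested probe sets, with all arrays, were at 1.06 ± 0.49 and -0.42 ± 0.40 for Arid1b and at -0.20 ± 0.19 and -0.13 ± 0.19 for Smarce1 (SE). Smarcc2, counted as higher at 0.13 ± 0.19, had another tested probe set at -0.47 ± 0.17, lower without overlap (SE).

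Of 12 NuRD genes, 8 had negative changes with all arrays (66.7%) and 9 with deficient array 3 alone (75%). On their brightest tested probe sets Chd4, Mta1, Mta2, Mta3 and Hdac1 were lower without overlap. Their log2 changes lay between -0.45 and -0.26 with all arrays and between -0.37 and -0.10 with deficient array 3 alone. The histone-binding Rbbp7 had 14309, 14095 and 6737 on the deficient arrays, against 6484, 7703 and 7199.5 on the adequate arrays, a log2 change of 0.64 ± 0.27 with all arrays and -0.08 ± 0.14 with deficient array 3 alone (SE). Its deficient arrays 1 and 2 were far above, and deficient array 3 within, the adequate range. In Polycomb repressive complex 2 with its accessory subunits, 4 of 9 genes had negative changes with all arrays (44.4%) and 6 with deficient array 3 alone (66.7%). There Mtf2 was at 0.39 ± 0.24 with all arrays and 0.30 ± 0.29 with deficient array 3 alone, and Jarid2 at -0.30 ± 0.15 and -0.32 ± 0.16 (SE) in the same settings. Of 8 genes of the COMPASS-type methyltransferases of histone H3, 6 had negative changes with all arrays (75.0%) and 2 with deficient array 3 alone (25.0%, against 54.4% of all tested genes). The paralogs Setd1a and Setd1b were at -0.44 ± 0.21 and 0.74 ± 0.25 with all arrays and at -0.02 ± 0.20 and 0.20 ± 0.20 with deficient array 3 alone (SE).

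**Figure D4:**
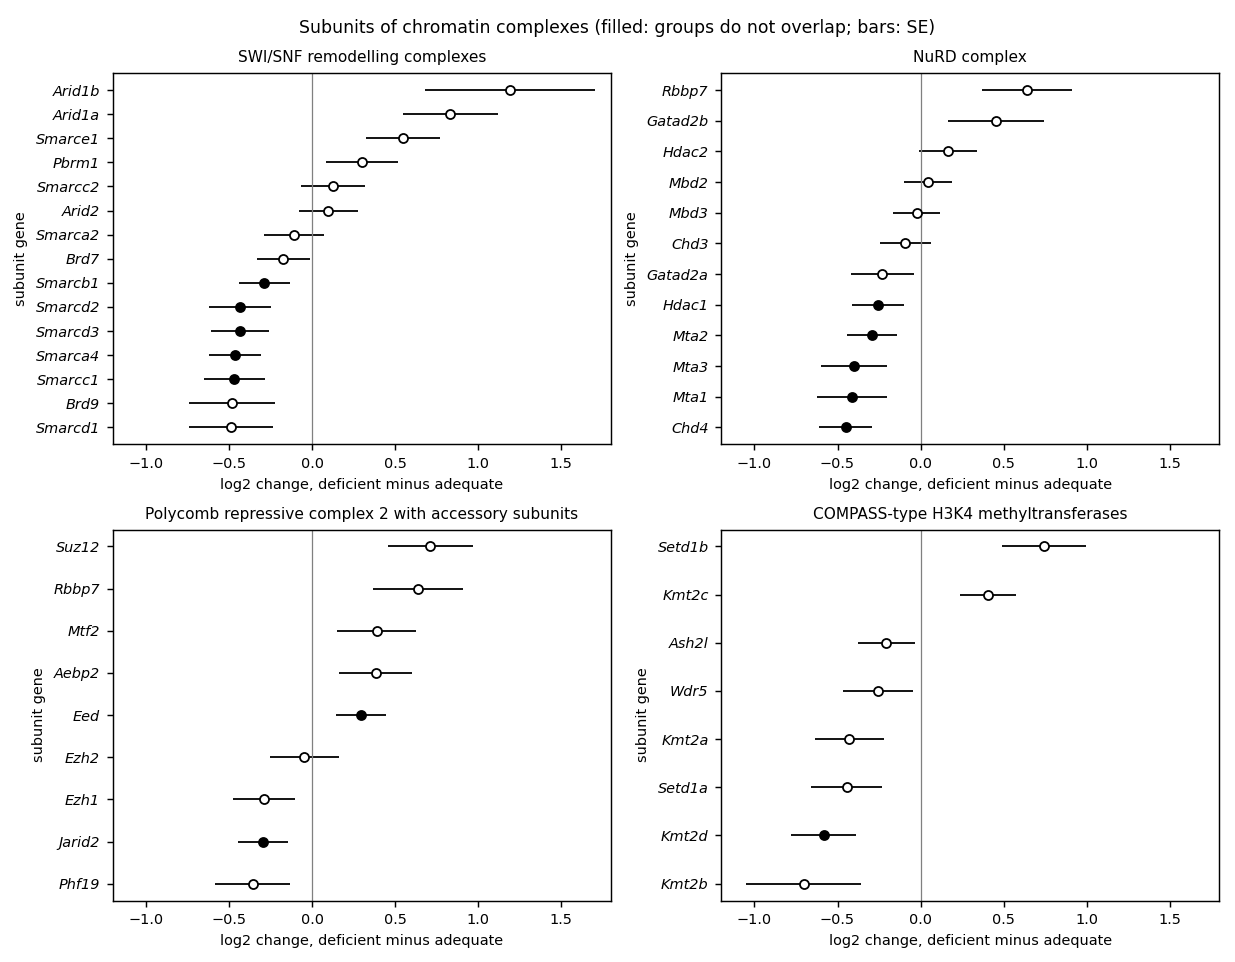
Log2 change (deficient minus adequate, with SE) of the subunit genes of 4 kinds of chromatin complex, filled where the groups do not overlap. The 10 SWI/SNF and NuRD subunits without overlap lie between -0.47 and -0.26. The positive changes of Arid1b, Arid1a and Rbbp7 on the brightest probe sets shown here rest on deficient arrays 1 and 2.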

How the data were processed

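Processing started from the deposited table of linear signal intensity, 1 column per array, with 31099 probe sets and 0 missing values. Per the submitters' processing notes, MAS5 and the Affymetrix Expression Console were used. Their versions and settings were not given in the sources used here. The 2% trimmed mean of the intensity was 500.1 to 500.2 on every array, computed from the deposited values. After removal of 57 control probe sets, signals were log2 transformed without an offset. By the platform annotation, 20826 probe sets have 1 gene symbol, 436 have several and 9780 have none. Of the first kind 20758 were matched by Entrez identifier to GRCr8, which changed 0 symbols.

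Groups and replicate numbers came from the sample titles. Deficient minus adequate was fitted with limma 3.58.1 in R 4.3.3 (lmFit, eBayes with a variance trend), two-sided, over all 18625 tested probe sets with Benjamini-Hochberg adjustment. In simulated signals for the same comparison, 100 of 18625 probe sets were shifted by a log2 change of 1 and 100 by 2, of which 37% and 90% were recovered. The 3 arrays a group limit the precision of every value.

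The members and lists were chosen with earlier results of these data known, so no list was tested. Values per array follow a rule (no overlap and unadjusted p under 0.05, or the lowest p in a role; for the further genes, the 4 with the lowest p each way); other values were named after they were seen. As alternatives the fit was repeated with quantile-normalized or median-centred arrays, without the filter or with its limit at the 60th percentile, with 50 added to each signal, without the variance trend, with array weights, with replicate blocks, leaving out each array, with deficient array 3 alone, with hybridisation controls as a covariate, and on probe sets averaged by gene. With deficient array 3 alone, that array is assumed to vary like the adequate arrays. Figures used matplotlib 3.10.9.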

Additional observations from a re-analysis of the deposited data

How the results depend on the processing

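With array weights, 3462 probe sets and 7 members passed the adjusted threshold, with 8 members lower at an unadjusted p under 0.05, 22 related genes higher and 38 lower. Leaving out 1 array gave 0 to 3614 probe sets and 0 to 7 members past the adjusted threshold, 0 to 6 members higher and 1 to 9 lower at an unadjusted p under 0.05, a member median of -0.11 to -0.029, and 1 to 20 related genes higher and 4 to 35 lower. The highest counts were those without deficient array 3. With deficient array 3 alone, 0 members were higher and 2 lower, the member median was -0.013, and 1 related gene was higher and 5 lower. With the hybridisation covariate 0 members were higher and 0 lower, the median was -0.032, and 2 related genes were higher and 4 lower. Median centring gave 2 lower members and a median of -0.018, quantile normalization 2 and -0.032, and averaging probe sets by gene 5 related genes higher. Mbd1 reversed to 0.36 with deficient array 3 alone, to 0.28 with the covariate and to 0.016 without deficient array 1 (-0.40 to 0.016 over the arrays left out), Sirt7 to 0.052 and 0.028 with the first pair of these settings, and Smarca4 to 0.036 with its probe sets averaged. The other 21 of 24 log2 changes examined kept their direction under all alternatives, and 32 of 403 values passed the adjusted threshold, all with array weights or without deficient array 3. The cause was not tested. With the replicate number as a block, 5 members were higher and 4 lower, 14 related genes were higher and 16 lower, and 0 members passed the adjusted threshold. Shares of all tested genes higher or lower were counted only for the main fit, for deficient array 3 alone and without that array. The counts in the other settings therefore have no background. Deviations of same-numbered arrays correlated at 0.107, 0.153 and 0.00655, and those of differently numbered arrays at -0.139 to 0.0512. Each same-numbered value was the highest for its deficient array, and these values do not decide whether the numbers are pairs. The labels name no pairing, so the main fit did not treat them as pairs.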
